A study of Bos taurus with 8 samples.

Results

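Macrophages of the bovine endometrium were described here through 9 genes, FCGR3A, TYROBP, CSF1R, CYBB, CD163, MRC1, CD68, AIF1 and LCP1. They were chosen by name as markers of macrophages and other myeloid cells, with earlier results of these data known. Every noncontrol array probe whose gene name or description carries one of these symbols was taken, 18 probes among 43653. All 9 genes had at least 1 probe bright enough to be tested, out of 13082 genes with a tested probe. Samples were endometrial biopsies from 8 cows, each a separate animal per the labels, with RNA from each biopsy on its own one-colour Agilent array. The day of standing estrus was day 0, and on day 1 each uterine horn received 25 mL of fluid. The fluid of 4 cows held methylglyoxal, a reactive by-product of glycolysis, at 5 mM, that of the other 4 held none (0 mM), and the horn beside the corpus luteum was biopsied on day 7. Breed, age and parity are not given in the sources used here.

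Macrophages are resident phagocytes that survive on signals through the CSF1 receptor, take up antibody-coated and scavenged material through surface receptors, and produce superoxide with an NADPH oxidase. In the endometrium they clear cell debris and bacteria after mating, calving or infection, and their number and state are known to shift across the estrous cycle and in early pregnancy. Monocytes, dendritic cells, neutrophils and natural killer cells share part of this gene set, so the genes mark a lineage more than a single cell type. A biopsy is a mixture of cells, and with bulk RNA fewer macrophages and less RNA per macrophage cannot be told apart.

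Some probe sequences are shown, namely those that were not well above background on every array. The first pair are 60-base probes for transcript variants 1 and 2 of FCGR3A, on chromosome 3 at chr3:8724831-8724890 and chr3:8724836-8724895 of the plus strand. Positions are those printed in the array files, whose build is HGSC Btau_3.1. These probes overlap by 55 bases, with 5 further bases on each, and within the overlap they differ at 1 base, G50C, counted from the 5′ end of the variant 1 probe and shown in capitals. Exon and untranslated region annotation of that build was not used here.
FCGR3A variant 1 probe: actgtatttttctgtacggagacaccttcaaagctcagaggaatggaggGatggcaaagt
FCGR3A variant 2 probe: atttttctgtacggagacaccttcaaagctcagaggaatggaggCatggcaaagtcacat
CSF1R probe at chr7:60850877-60850936, minus strand: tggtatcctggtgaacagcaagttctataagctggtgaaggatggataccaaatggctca
CD163 probe at chr5:109177958-109180145, plus strand: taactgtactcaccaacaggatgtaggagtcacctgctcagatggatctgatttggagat
MRC1 probe at chr13:32209930-32210556, plus strand: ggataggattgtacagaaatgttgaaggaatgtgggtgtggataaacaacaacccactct
LCP1 probe at chr12:15258171-15260428, minus strand: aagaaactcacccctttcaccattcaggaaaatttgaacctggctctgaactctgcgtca

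The CD163, MRC1 and LCP1 probes each cover 60 bases of transcript over 2188, 627 and 2258 bases of the genome, so their alignments are split. The CSF1R probe was not well above background on any array, and CD163 had no other probe than the one printed. A second MRC1 probe lies 2820 bases downstream on the same strand, and a second LCP1 probe lies 30538 bases further toward the transcript's end.

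Of 6 tested markers of the uterus, PGR, ESR1, HOXA10, HAND2 and OXTR were well above background on all 8 arrays, and FOXA2, a factor of the endometrial glands, on all 4 with 0 mM and 3 with 5 mM. These genes mark the uterus and, apart from FOXA2, not the endometrium alone, and the biopsies differed in muscle and epithelium. The mean of 10 smooth muscle markers, relative to the mean of the 8 arrays, was 1.44 on 0 mM replicate 1, 2.88 on 5 mM replicate 1 and 1.71 on 5 mM replicate 3. Smooth muscle means of the remaining 5 arrays ran from -1.74 to -0.88. The mean of 8 epithelium markers was -3.05 on 5 mM replicate 1, while the remaining arrays read from 0.17 to 0.82. Between 68.3% and 73.3% of noncontrol spots were well above background on each array, with none at saturation. Precision is limited by how few arrays there are.

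Each level given is the log2 spot signal minus the log2 75th percentile of its array. Differences subtract the 0 mM mean from the 5 mM mean, and group values are means ± SD over 4 cows. For a gene with several probes, the tested probe with the highest mean stands for the gene. Levels of different genes are not compared, since probes differ in how brightly they shine for the same amount of RNA.

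The comparison asked whether macrophage transcripts on day 7 differed between cows given methylglyoxal and cows given fluid without it. All 9 genes had a lower mean in the 5 mM group, with differences from -1.08 for FCGR3A to -0.04 for TYROBP and a median of -0.42, against a median of 0.01 over the 13082 genes tested. Of all 31108 probes tested, 46.9% had a lower mean in the 5 mM group, as did 48.4% of the 13082 genes. Because the 9 genes were chosen with earlier results of these data known, their shared direction and median carry no test. None of the 9 genes passed the adjusted threshold of 0.05 in limma with Benjamini-Hochberg adjustment over all tested probes, where 0% of probes passed and 595 had an unadjusted p under 0.05. At that unadjusted level 1 gene of the 9, LCP1, was lower, against 0.955% of probes and 146 of the 13082 genes. The same gene was the 1 of 9 whose 4 values with 5 mM all lay below the 4 with 0 mM, against 0.524% of probes and 0.58% of genes. When a cow was left out, the median became -0.89 for 0 mM replicate 1, -0.26 for 0 mM replicate 3, -0.10 for 0 mM replicate 4 and -0.70 for 5 mM replicate 4. Leaving out 0 mM replicate 4 made the count of lower genes 6, leaving out 5 mM replicate 4 made it 7, and it was 8 when 0 mM replicate 1, 2 or 3 or 5 mM replicate 2 was left out. The shares of all probes with a lower mean in these fits are not given here, so these counts are not set against them.

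**Figure D1:**
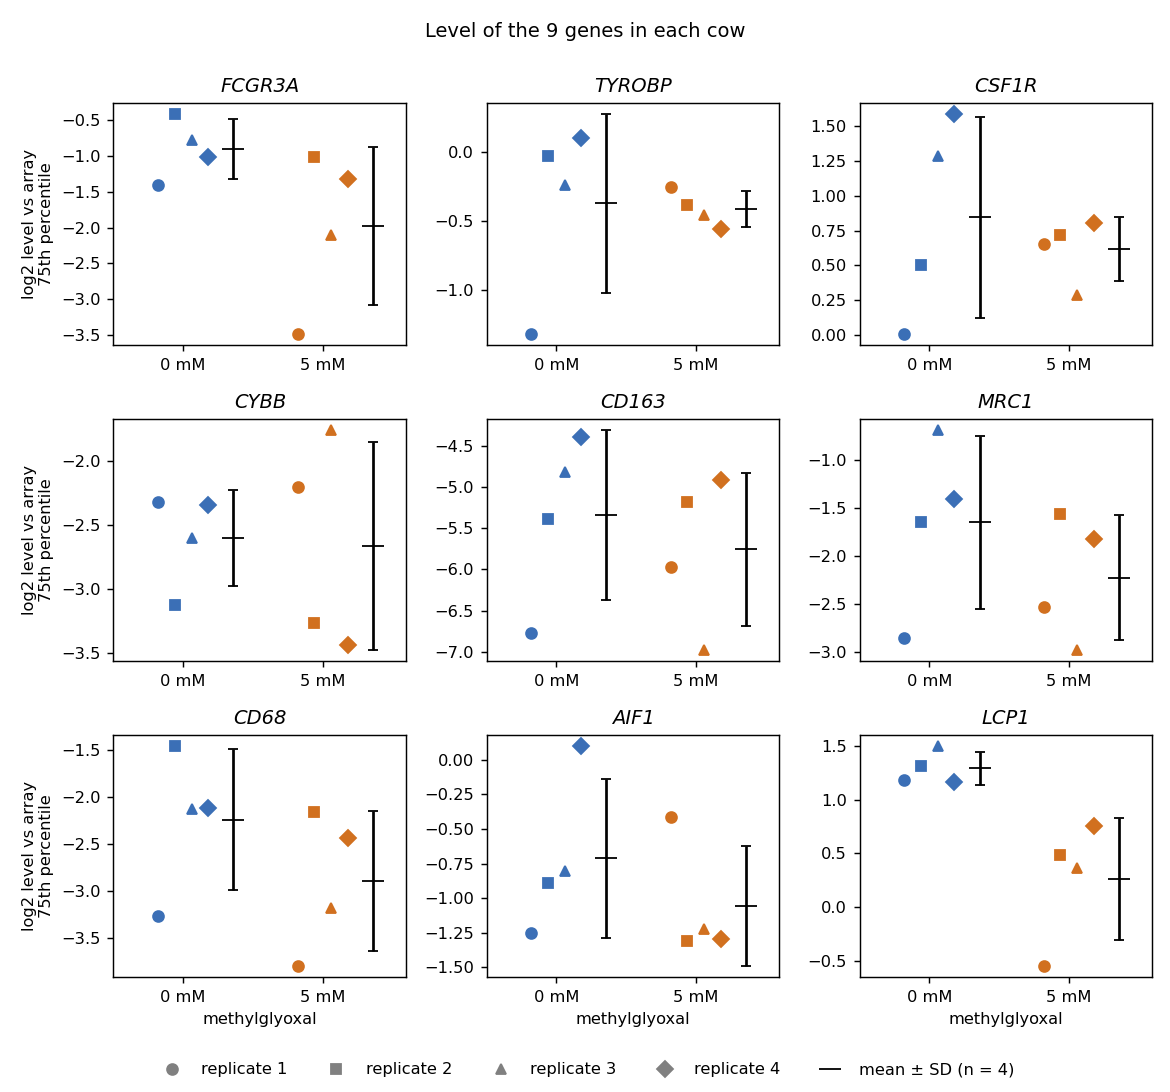
Each panel plots 1 gene, with the log2 level relative to the array's 75th percentile on the y axis and the 2 methylglyoxal doses on the x axis. Coloured points are single cows, with the marker shape giving the replicate number, and the black bar is the mean ± SD over 4 cows. The groups overlap in every panel except LCP1.

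FCGR3A encodes CD16a, a low-affinity receptor for IgG on macrophages and natural killer cells. Its brightest probe, at chr3:8726070-8726129, read -1.41, -0.42, -0.78 and -1.02 on 0 mM replicates 1 to 4 and -3.49, -1.02, -2.11 and -1.32 on 5 mM replicates 1 to 4. The lowest values were on 5 mM replicates 1 and 3, and the groups overlapped at 0 mM replicate 1. The group means were -0.91 ± 0.42 and -1.98 ± 1.1, and they differed by -1.08 ± 0.52 (SE; 95% interval -2.28 to 0.13; limma, unadjusted p = 0.0734, adjusted p = 0.913). Without 5 mM replicate 1 the difference was -0.57.

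The FCGR3A probes named for the transcript variants gave the same sign. They overlap by 55 bases with 1 difference, so they are not separate measurements of the gene. Whether each reads only its own variant was not tested. The variant 1 probe differed by -1.59 ± 0.94 (SE) and the variant 2 probe by -1.16 ± 0.56. Both were well above background on 7 of 8 arrays, the exception being 5 mM replicate 1, where they read -7.93 and -6.17.

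TYROBP encodes DAP12, the adaptor through which receptors such as TREM2 signal in myeloid and natural killer cells. Its level was -1.32, -0.03, -0.24 and 0.11 on 0 mM replicates 1 to 4, and -0.25, -0.38, -0.46 and -0.56 on 5 mM replicates 1 to 4. The 5 mM cows lay inside the range of the 0 mM cows, whose lowest value was 0 mM replicate 1. The difference was -0.04 ± 0.31 (SE; 95% interval -0.75 to 0.67), and the second probe, 47 bases away, gave -0.16 ± 0.27. The sign of the first was not stable: it was positive without 0 mM replicate 2, 3 or 4 or 5 mM replicate 4, at most 0.12, and -0.36 without 0 mM replicate 1.

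From a list of 12 further genes of Fc receptors and adaptor-linked receptors, 9 had a tested probe. Of these, 6 were lower and 3 higher in the 5 mM group, with a median of -0.06 and none at an unadjusted p under 0.05. The high-affinity IgG receptor gene FCGR1A differed by -0.54 ± 0.35 (SE), the Fc receptor gamma chain gene FCER1G by -0.30 ± 0.17, the neonatal Fc receptor gene FCGRT by -0.24 ± 0.14 and the activating receptor gene CD300LB by 0.30 ± 0.20. The inhibitory IgG receptor gene FCGR2B differed by -0.09 ± 0.19.

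CSF1R encodes the receptor for CSF1 and IL34, on which macrophage survival depends. Its brightest probe, at chr7:60848894-60848950, read 0.00, 0.50, 1.29 and 1.59 on 0 mM replicates 1 to 4 and 0.65, 0.72, 0.29 and 0.81 on 5 mM replicates 1 to 4. All 5 mM values lay inside the 0 mM range, and the difference was -0.23 ± 0.35 (SE; 95% interval -1.03 to 0.57). The neighbouring probe shares 52 bases with it and has only the 8 bases at its 5′ end, ctcatcgt, in place of the 8 at the other probe's 3′ end, aacacaaa. This probe read -0.11, 0.22, 0.81 and 0.51 with 0 mM and 0.54, 0.24, -1.59 and -0.33 with 5 mM, a difference of -0.64 ± 0.46.

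Each of the CSF1R estimates lies within the 95% interval of the other, but those intervals reflect spread between cows, not agreement of the probes. The brighter probe exceeded its neighbour by 0.12 and 0.11 on replicate 1 of 0 mM and 5 mM (slide 1). The gap was 0.28, 0.48 and 0.48 on 0 mM replicates 2 and 3 and 5 mM replicate 2 (slide 2). On 0 mM replicate 4 and 5 mM replicates 3 and 4 (slide 3) it was 1.08, 1.88 and 1.14. The part of slide in this gap was not tested. The brighter probe's difference was 0.02 without 0 mM replicate 4. The ligand genes CSF1 and IL34 differed by -0.29 ± 0.24 and 0.55 ± 0.48 (SE), and their second probes by 0.26 and 0.35. The other 5 listed genes of colony stimulating factors and their receptors had no tested probe.

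CYBB encodes the catalytic subunit of the phagocyte NADPH oxidase, also called NOX2. Its brightest probe, unmapped on this build, read -2.32, -3.13, -2.60 and -2.35 on 0 mM replicates 1 to 4 and -2.20, -3.27, -1.76 and -3.44 on 5 mM replicates 1 to 4. Its highest value and its lowest were both in the 5 mM group. The difference was -0.07 ± 0.40 (SE; 95% interval -1.00 to 0.87), and the second CYBB probe gave -0.30 ± 0.27. Its sign turned without 0 mM replicate 1 or 4 or 5 mM replicate 2 or 4, reaching 0.19. Unlike the other genes, CYBB was highest on 5 mM replicate 3, where CD163 and MRC1 were lowest.

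The 7 listed partners of the oxidase were all tested, and 4 were lower and 3 higher with 5 mM, at a median of -0.26. RAC2, the leukocyte Rac GTPase, differed by -0.70 ± 0.31 (SE; unadjusted p = 0.0541), and its 4 values with 5 mM lay below the 4 with 0 mM. Its second probe differed by 0.14. CYBA, the membrane partner of NOX2, differed by -0.37 ± 0.17 (unadjusted p = 0.0544) and its second probe by -0.39. RAP1A (0.34 ± 0.20) and RAC1 (0.16 ± 0.15), which many cell types express, had higher means. The cytosolic subunit genes NCF1 and NCF4 differed by 0.10 and -0.43, and the second NCF4 probe differed by -1.34.

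CD163 and MRC1 encode a receptor for haptoglobin-bound haemoglobin and the macrophage mannose receptor, markers of tissue-resident macrophages. The single CD163 probe read -6.77, -5.39, -4.82 and -4.40 with 0 mM and -5.97, -5.18, -6.98 and -4.91 with 5 mM, and it was well above background on 3 arrays of each group. The values overlapped throughout, and the difference was -0.42 ± 0.61 (SE; 95% interval -1.83 to 1.00). With normexp background correction it was -0.0025, and leaving out 1 cow moved it between -0.89 and -0.01.

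MRC1 read -2.85, -1.64, -0.68 and -1.40 on 0 mM replicates 1 to 4 and -2.53, -1.56, -2.98 and -1.82 on 5 mM replicates 1 to 4, from the probe at chr13:32213377-32213436. Its low values, like those of CD163, were on 0 mM replicate 1 and 5 mM replicates 1 and 3. The difference was -0.58 ± 0.49 (SE; 95% interval -1.72 to 0.56), with -0.98 when 0 mM replicate 1 was left out and -0.26 when 0 mM replicate 3 was. The split MRC1 probe printed above differed by -0.72 ± 0.54 and was well above background on 3 arrays with 0 mM and 1 with 5 mM.

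Of 9 listed relatives of these receptors and of haem-handling genes, 8 were tested, 5 lower and 3 higher with a median of -0.24 and none at an unadjusted p under 0.05. CD5L, which encodes a protein secreted by tissue macrophages, differed by -2.13 ± 1.13 (SE; unadjusted p = 0.0974) and was well above background on 4 arrays with 0 mM and 3 with 5 mM. The endocytic receptor gene LY75 differed by -0.96 ± 0.52, the lipoprotein receptor gene SCARB1 by -0.61 ± 0.36 and CD163L1 by -0.36 ± 0.51. HMOX1, which breaks down the haem taken up by CD163, differed by 0.16 ± 0.38.

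CD68 encodes a lysosomal membrane glycoprotein widely used to stain macrophages. Its brighter probe, at chr19:27817263-27817322, read -3.26, -1.45, -2.13 and -2.12 on 0 mM replicates 1 to 4 and -3.80, -2.16, -3.18 and -2.43 on 5 mM replicates 1 to 4. Apart from 0 mM replicate 1, all 0 mM values lay above all 5 mM values. The difference was -0.65 ± 0.47 (SE; 95% interval -1.73 to 0.43; limma, unadjusted p = 0.204, adjusted p = 0.913), and -0.99 without 0 mM replicate 1. The second probe, 149 bases downstream, gave -0.81 ± 0.49. Without 5 mM replicate 1 the difference was -0.35, and without 0 mM replicate 2 it was -0.39.

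AIF1 encodes IBA1, a calcium-binding, actin-bundling protein of macrophages and microglia. Its single probe, at chr23:27500530-27500589, read -1.25, -0.89, -0.81 and 0.10 on 0 mM replicates 1 to 4 and -0.41, -1.31, -1.22 and -1.29 on 5 mM replicates 1 to 4. The highest cow was 0 mM replicate 4 and the next was 5 mM replicate 1, the array with the lowest epithelium markers. The difference was -0.35 ± 0.33 (SE; 95% interval -1.11 to 0.42). Leaving out 5 mM replicate 1 gave -0.56, and leaving out 0 mM replicate 4 gave -0.07.

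LCP1 encodes L-plastin, an actin-bundling protein of leukocytes of every lineage, lymphocytes included. Its brighter probe, at chr12:15227573-15227632, read 1.18, 1.31, 1.5 and 1.17 on 0 mM replicates 1 to 4 and -0.55, 0.49, 0.36 and 0.76 on 5 mM replicates 1 to 4. The 0 mM cows spanned 0.34 and all stood above the 5 mM cows, which spanned 1.31. The means were 1.29 ± 0.16 and 0.26 ± 0.57, a difference of -1.03 ± 0.28 (SE; 95% interval -1.67 to -0.39), or a 2.04-fold lower level with 5 mM. The unadjusted p was 0.00599, the adjusted p was 0.913, and the exact two-sided permutation p was 0.0286, the smallest that 4 against 4 arrays can give. Without 5 mM replicate 1 the difference was -0.76, and within slides 1, 2 and 3 it was -1.73, -0.92 and -0.61.

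The second LCP1 probe did not separate the groups. It read -4.73, -3.94, -3.93 and -4.71 with 0 mM and -6.28, -3.73, -5.04 and -4.98 with 5 mM, with the highest of all 8 values on 5 mM replicate 2. Its difference was -0.68 ± 0.50 (SE; unadjusted p = 0.214), and it was well above background on all 4 arrays with 0 mM and on 1 with 5 mM, so most of its 5 mM values lie near background. Averaged over both probes, LCP1 differed by -0.85 and no gene of the 9 had an unadjusted p under 0.05. The plastin relatives PLS1, of epithelium, and PLS3, of many tissues, differed by -1.31 ± 1.00 and 0.21 ± 0.28, and the AIF1 relative AIF1L by -0.25 ± 0.19.

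**Figure D2:**
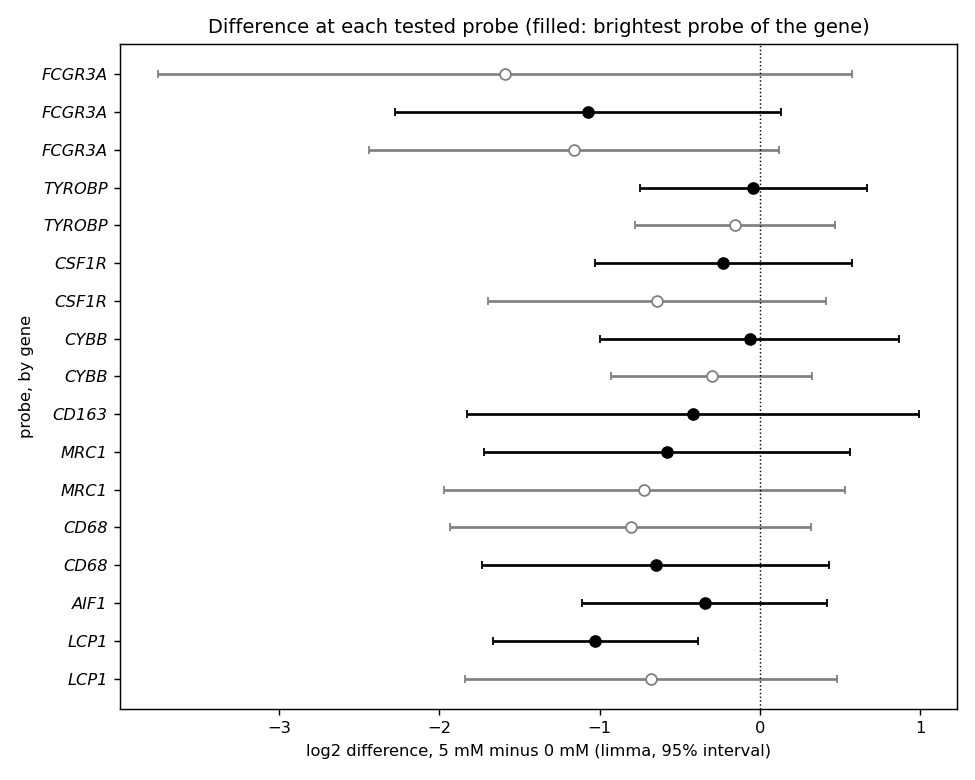
Log2 differences, 5 mM minus 0 mM, on the x axis with their 95% limma intervals, for the 17 tested probes of the 9 genes on the y axis. Filled black points are the brightest probe of each gene and open grey points are its other probes. All 17 points lie below 0, and 1 interval, that of the brighter LCP1 probe, leaves 0 out.

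Across cows the 9 genes did not follow a single order. Relative to the 8-array mean of each gene, the average over the 9 genes was -0.46, 0.31, 0.51 and 0.62 on 0 mM replicates 1 to 4 and -0.52, 0.03, -0.46 and -0.04 on 5 mM replicates 1 to 4. These averages were 0.25 ± 0.49 with 0 mM and -0.25 ± 0.28 with 5 mM, and the groups overlapped because 0 mM replicate 1 lay as low as the lowest 5 mM cows. All 9 genes were above their 8-array mean on 0 mM replicates 3 and 4, 6 on 0 mM replicate 2 and 3 on 0 mM replicate 1. In the 5 mM group the counts were 3, 5, 1 and 5.

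The lowest arrays were those with the highest smooth muscle means. For FCGR3A, CD163, MRC1 and CD68, 4 of the 9 genes, the 3 lowest values were on 0 mM replicate 1 and 5 mM replicates 1 and 3, while for CYBB none of its 3 lowest values was. All 10 smooth muscle markers and all 8 epithelium markers were well above background on every array of both groups. The mean of the smooth muscle markers, relative to the mean of the 8 arrays, ran from -1.74 to 1.44 with 0 mM and from -1.39 to 2.88 with 5 mM. With those 3 arrays left out, a choice made after seeing the data that leaves 3 cows against 2, all 9 genes had a lower mean with 5 mM, at a median of -0.43. The shares of all probes with a lower mean, or at an unadjusted p under 0.05, in this subset are not given here. LCP1 differed by -0.71 (unadjusted p = 0.0109), FCGR3A by -0.43, CD68 by -0.40, MRC1 by -0.45, AIF1 by -0.77, CYBB by -0.66, TYROBP by -0.42, CSF1R by -0.36 and CD163 by -0.18, and none passed the adjusted threshold (adjusted p = 1.0 for each, and 0.667 to 1.0 over all alternatives). The part of muscle in the differences was not tested.

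Slides also divided the arrays. Within slide 1, with replicate 1 of both groups, 3 of 9 genes were lower with 5 mM and the median was 0.32. Within slide 2, with 0 mM replicates 2 and 3 and 5 mM replicate 2, all 9 were lower with a median of -0.39. Within slide 3, with 0 mM replicate 4 and 5 mM replicates 3 and 4, all 9 were lower with a median of -0.69. LCP1, FCGR3A and CD68 were lower within each slide, FCGR3A by -2.07, -0.42 and -0.69 and CD68 by -0.54, -0.37 and -0.68. Each slide holds a single array of at least 1 group, so the within-slide values carry no test. The share of all probes lower within each slide is not given here. In the limma fit with slide as a block the median was -0.42, and none of the 9 genes passed the adjusted threshold. FCGR3A differed by -0.97 there (unadjusted p = 0.0323, adjusted p = 0.841), LCP1 by -1.03 (unadjusted p = 0.00454, adjusted p = 0.841) and CD68 by -0.53 (unadjusted p = 0.0767). At an unadjusted p under 0.05 these were 2 of 9, FCGR3A and LCP1. The share of all probes at that level with the block is not given here, so this count is not set against the 1 without it.

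**Figure D3:**
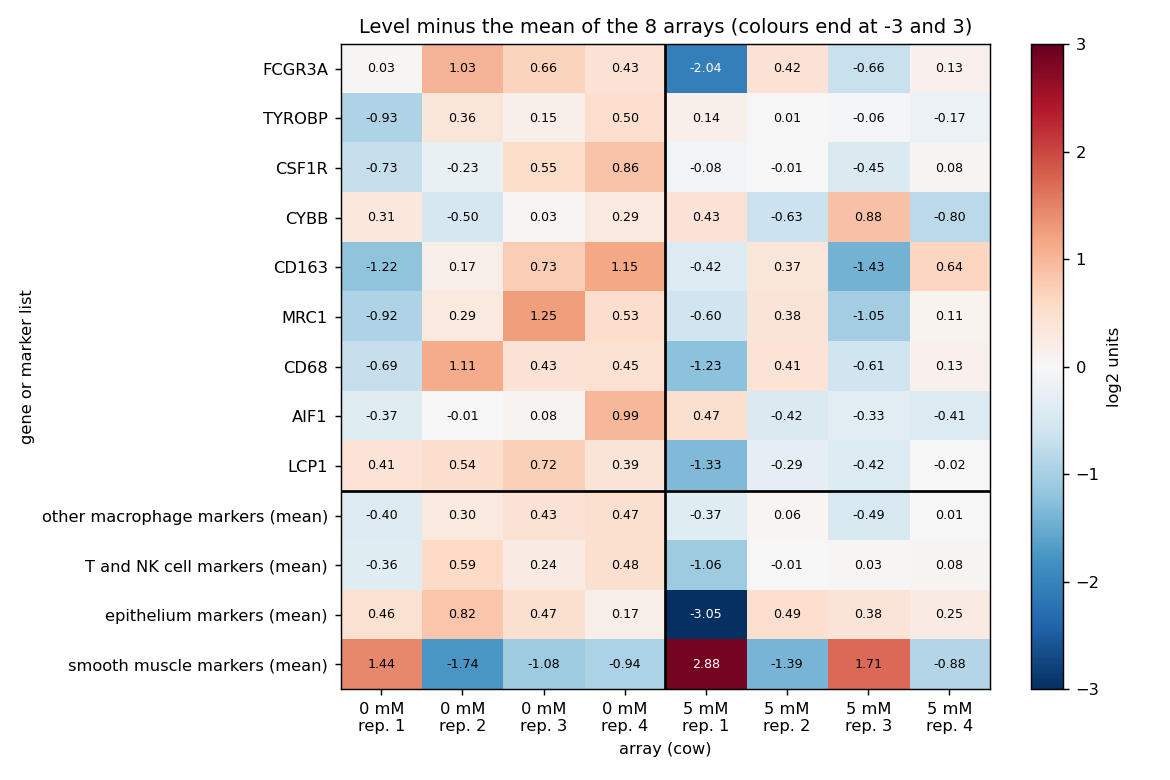
Rows are the 9 genes and, below the line, the means of 4 marker lists, columns are the 8 arrays, and colour and printed value give the log2 level minus the mean of the 8 arrays. 0 mM replicate 1 and 5 mM replicates 1 and 3 hold the highest smooth muscle means, 1.44, 2.88 and 1.71, and the 3 lowest values of FCGR3A, CD163, MRC1 and CD68.

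Other genes of macrophages and monocytes had lower means in much the same cows. Of 30 listed genes 23 were tested, 19 lower and 4 higher with 5 mM at a median of -0.50, and 2 were lower at an unadjusted p under 0.05. ARHGDIB, a gene of leukocytes, differed by -1.19 ± 0.46 (SE; unadjusted p = 0.0328), and its 4 values with 5 mM lay below the 4 with 0 mM. MS4A7, a membrane protein gene of macrophages, differed by -0.58 ± 0.29 and C1QC, a chain of complement C1q, by -1.18 ± 0.59. The mean of the list was -0.40 on 0 mM replicate 1, -0.37 on 5 mM replicate 1 and -0.49 on 5 mM replicate 3, with 0.01 to 0.47 elsewhere, so its 3 lowest arrays were also the 3 lowest for the mean of the 9 genes. Part of this list, such as ARHGDIB, PTPRC and CORO1A, is expressed by all leukocytes.

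The transcription factors of the lineage were divided. Of 10 listed, 8 were tested, with 4 lower and 4 higher and a median of -0.09. SPI1, which encodes PU.1, the factor that specifies myeloid cells, differed by -0.56 ± 0.33 (SE; unadjusted p = 0.128), KLF4 by -0.52 ± 0.33, MAF by 0.92 ± 0.54 and CEBPA by 0.33 ± 0.18. The second CEBPA probe had the opposite sign, at -0.78.

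Markers of neighbouring immune cells differed in direction between lists. All 6 tested dendritic cell markers were lower with 5 mM, at a median of -0.71, with BATF3, a factor of cross-presenting dendritic cells, at -0.52 ± 0.18 (SE; unadjusted p = 0.0205) and LAMP3, a marker of mature dendritic cells, at -0.90 ± 0.37 (unadjusted p = 0.0395). Of 7 tested neutrophil markers 3 were lower and 4 higher, at a median of 0.11, with the granule genes S100A8 and S100A9 at 0.13 ± 0.61 and 0.17 ± 0.79. Of 14 tested T and natural killer cell markers 10 were lower, at a median of -0.53, all 5 tested B cell markers were lower, at -0.98, and of 4 tested mast cell markers 2 were. The T and natural killer cell mean was -1.06 on 5 mM replicate 1 and -0.36 on 0 mM replicate 1, with -0.01 to 0.59 elsewhere. FCGR3A and TYROBP are also expressed by natural killer cells and LCP1 by T and B cells, and the part of those cells in the 3 genes was not tested.

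Haemoglobin genes, a measure of blood in the biopsy, were uneven too. The mean of HBA and HBB was 2.12 on 5 mM replicate 2, 2.43 on 5 mM replicate 4 and -2.07 on 5 mM replicate 3, and the remaining arrays read from -1.49 to -0.12. The part of blood in the results for the 9 genes was not tested. Endothelium markers were lower in 3 of 6 tested genes, at a median of -0.06, and stromal markers in 3 of 7, at 0.08.

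**Figure D4:**
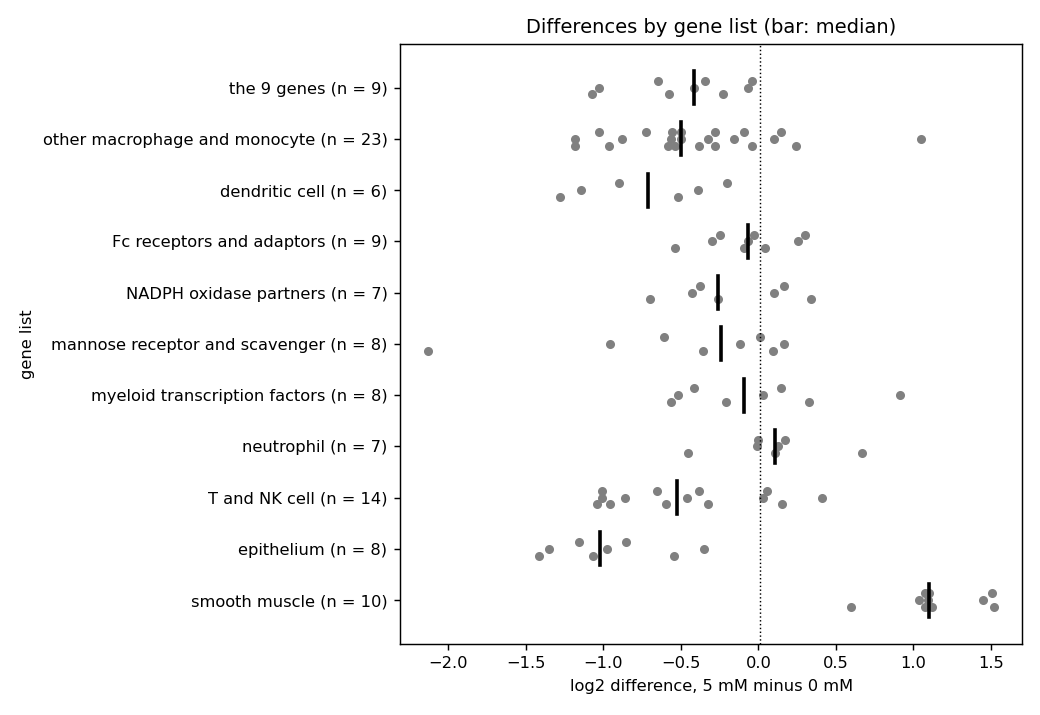
Each grey point is a tested gene, placed by its log2 difference, 5 mM minus 0 mM, on the x axis within its list on the y axis, with a black bar at the list's median and a dotted line at the median of all tested genes. The 9 genes sit at a median of -0.42, the other macrophage and monocyte genes at -0.50, epithelium at -1.02 and smooth muscle at 1.1.

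The likeness of each gene's pattern to others was described by Pearson's r over the 8 arrays among 12417 other named genes with a value on every array. These points share the groups, the slides and the makeup of each biopsy, and no p is attached. The closest patterns to FCGR3A were those of MYO6 (r = 0.993), TRAPPC5 (0.988) and TENM3 (0.985), and 708 genes had an r over 0.9 with it. For LCP1 they were RGL2 (0.977), KIAA2013 (0.960) and L3MBTL3 (0.958), with 45 genes over 0.9. For CD163 they included FUOM (0.987) and CFP (0.982), which encodes properdin, a complement protein made by myeloid cells. MRC1 was closest to GPX7 (0.988), CD68 to NUP153 (0.980), CSF1R to PPP1R10 (0.969), TYROBP to MYBPHL (0.960), CYBB to COL25A1 (0.982) and AIF1 to CYRIA (0.949).

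Among the 9 genes themselves the closest partners were CD68 for FCGR3A (r = 0.904), FCGR3A for LCP1 (0.901) and MRC1 for CD163 (0.896). CD163 was the closest of the 9 to CSF1R (0.881). TYROBP and AIF1 were each nearest to CSF1R (0.712 and 0.686), and CYBB reached no more than 0.325, with AIF1. For no gene was another of the 9 its closest match, the best rank being 42 of 12417, that of FCGR3A for LCP1.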

How the data were processed

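The deposited intensity values are processed spot signals from Feature Extraction 11.5.1.1, background-subtracted and detrended per the file headers and not put on a shared scale. The submitters' processing notes name version 10.5.1.1. The authors' deposited value table holds log2 values, which matched the levels used here once each probe was centred on its median (r of at least 0.9995 over 43653 probes); its column medians lay between -0.023 and 0.13, and it served as an alternative.

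Spots that the scanner software marked as outliers were dropped, spots of a probe were averaged on the log2 scale, and the log2 75th percentile of noncontrol spots was subtracted. Probes well above background on at least 4 of 8 arrays, 31108, were fitted with limma 3.58.1 (R 4.3.3) without covariates and adjusted by Benjamini-Hochberg. Symbols came from the files, updated with a RefSeq table of assembly ARS-UCD2.0 (34980 probes named, 22205 by accession).

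The genes and lists were chosen with earlier results of these data known. Named were the 9 genes, up to 4 genes of lowest p per partner list, further list genes chosen for their role or after their values were seen, and the 3 closest patterns per gene (fewer are printed). A few genes that the rule names are not reported here. Alternatives were other normalizations, normexp (offset 50), other filters and variance settings, array weights, slide and replicate blocks, probe means, an adjusted threshold of 0.1 and leaving out cows.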

Additional observations from a re-analysis of the deposited data

Results flagged for a closer look

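AIF1 on 5 mM replicate 1 stood apart from its group, at -0.41 against -1.22 for the nearest of the other 3 cows, which lay between -1.31 and -1.22. The gap to the nearest cow was 0.90 of the group's range, above the critical value of 0.829 for 4 samples. It was 1 of 36 sets of 4 values examined, 18 probes in each of 2 groups, and chance flags about 1 set in 20. The same array had the lowest epithelium mean (-3.05) and the highest smooth muscle mean (2.88), whose part in this value was not tested.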

How the results depend on the processing

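No probe passed the adjusted threshold in any of the alternatives, and the median difference of the 9 genes, -0.42, stayed below 0 except within slide 1, where it was 0.32. Leaving out 1 cow gave medians from -0.89 to -0.10, and differences from -0.36 to 0.12 for TYROBP, from -0.51 to 0.020 for CSF1R and from -0.37 to 0.19 for CYBB, which turned sign. TYROBP also turned with a shift to the array median, at 0.015. Within slide 1, where each group is a single cow, TYROBP was 1.07, CSF1R 0.65, CYBB 0.12, CD163 0.80, MRC1 0.32 and AIF1 0.84. FCGR3A, CD68 and LCP1 kept their sign in all settings, LCP1 from -1.73 to -0.61. The replicate block left the differences as they were (median -0.42) and 0 genes past the adjusted threshold. FCGR3A (limma, unadjusted p = 0.0219), CD68 (0.0129) and LCP1 (0.00879), 3 genes, were at an unadjusted p under 0.05, each with an adjusted p of 0.791. The share of all probes at that level with the replicate block is not given here, so this count is not set against that of the main fit. Same-numbered cows had deviations from their group means that correlated at 0.40, 0.36, -0.30 and 0.31, and 3 of the 4 cows given 0 mM correlated best with their own number. The labels name nothing that same-numbered cows share, and with 1 correlation below 0 the numbers were not taken as pairs. Their arrays shared a slide for numbers 1, 2 and 4 (slides 1, 2 and 3), while those of number 3 were on slides 2 and 3. The part of slide in these correlations was not tested. With a spread of 0.40 between cows of a group in the mean of the 9 genes, only large differences could be seen, and CD163 and the split probes of MRC1 and LCP1 lay near background.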

Other observations

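Several genes of the lineage had probes that pointed in opposite directions. The second probes of PTPRC, the pan-leukocyte phosphatase gene CD45 (0.15 against -0.64), LYZ, the lysozyme gene (0.10 against -0.77), and SIRPB1, a TYROBP-linked receptor gene (0.25 against -0.59), had lower means with 5 mM while the brightest did not. LYVE1, carried by lymphatic endothelium and by a subset of tissue macrophages, had a higher mean with 5 mM, 1.05 ± 0.68 (SE; unadjusted p = 0.159), and its other probes gave 1.34 and 1.86. STAB1, another scavenger receptor gene of resident macrophages and endothelium, differed by -0.04 ± 0.34. These genes were named after their values were seen.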
